A study of Mus musculus with 8 samples.

Results

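Robo1, Robo2 and Dcc, 3 genes for axon guidance receptors, were described by the RNA tags crosslinked to Ptbp2 that fell within them. Tags were chosen by position and strand, in mm9 coordinates. Robo1 took the tags with a midpoint on the plus strand of chromosome 16 between 72020000 and 73050000, and Robo2 those on the minus strand between 73890000 and 74420000. Dcc took the tags on the minus strand of chromosome 18 between 71413000 and 72511000. The 3 intervals held 10926 of the 3098854 tags of the series (0.353%), with 5278 in Robo1, 2356 in Robo2 and 3292 in Dcc. They had been proposed because they hold many tags, so their tag density is given as a description and was not tested. Values given below for a gene, or for the 3 genes, are those of these intervals.

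The libraries came from the cortex of CD1 embryos at embryonic day 18.5, titled WT, and were made by HITS-CLIP, in which ultraviolet light joins a protein to the RNA it touches before immunoprecipitation and sequencing. There were 8 libraries, 4 for each of 2 brains that the labels call biological replicates. In both brains, libraries 1 and 2 are titled with the letter a and libraries 3 and 4 with the letter b, and the labels do not say what the letters mean. All libraries shared genotype, antibody and age, and no input RNA was analysed here, so a tag count combines binding with transcript abundance. In bulk cortex, fewer cells of a type and less RNA per cell cannot be told apart. The tissue label and the other genes of the pathway (Slits, netrins, Unc5 receptors) are not analysed here, because no gene positions in mm9 were used.

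Robo1 and Robo2 are transmembrane receptors for Slit proteins, and their signalling repels growing axons and steers migrating neurons. Dcc is a receptor for netrin-1, which attracts axons of many classes, including those that cross the midline. All 3 genes are expressed by developing cortical neurons and are transcribed as long precursors with very large introns. Ptbp2 is a neuronal RNA-binding protein that attaches to pyrimidine-rich stretches, many of them intronic, and regulates alternative splicing of the bound transcripts.

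The Robo gene pair lies side by side, and RefSeq (GRCm38.p6) places Robo1 between Gbe1 and Robo2, and Robo2 between Robo1 and Lipi. Its promoter table lists 1 start for Robo1 and 3 for Robo2, and the bases around each are shown because the Robo2 tags ran far upstream of the Robo2 interval. Each line gives the 50 bases before the start in lower case and the first 50 transcribed bases in capitals, 5′ to 3′ on the gene's strand. In GRCm38.p6 they are chr16:72663099-72663198 on the plus strand for Robo1. The Robo2 starts, on the minus strand, are chr16:75447244-75447343, chr16:75092721-75092820 and chr16:74411776-74411875, in that order. These positions are in another build than the tags and were not converted.
Robo1 start 1: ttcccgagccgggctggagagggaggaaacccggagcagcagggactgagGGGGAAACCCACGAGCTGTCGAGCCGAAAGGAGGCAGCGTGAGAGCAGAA
Robo2 start 1: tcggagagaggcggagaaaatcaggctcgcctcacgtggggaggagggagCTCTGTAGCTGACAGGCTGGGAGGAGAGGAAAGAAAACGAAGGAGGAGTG
Robo2 start 2: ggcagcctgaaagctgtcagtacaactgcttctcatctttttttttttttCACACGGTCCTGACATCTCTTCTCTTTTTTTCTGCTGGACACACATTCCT
Robo2 start 3: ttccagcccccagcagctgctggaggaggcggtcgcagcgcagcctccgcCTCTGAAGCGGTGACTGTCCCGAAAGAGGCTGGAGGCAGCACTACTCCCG

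In the capitals of Robo2 start 2, the letters TCTT, a short pyrimidine word searched on the sense strand only, occurred 2 times. The other 3 stretches held 0. Of the 32851 promoters in the table, 18.64% had TCTT in their first 50 transcribed bases. The longest pyrimidine run of those 50 bases was 18 in Robo2 start 2, a length reached by 0.438% of all promoters, and 3, 4 and 5 in Robo1 start 1, Robo2 start 1 and Robo2 start 3. Pyrimidines made up 72.0% of the first 50 bases of Robo2 start 2 and 24.0% to 46.0% in the others. A letter match describes the sequence and was not set against tag positions.

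Brain 1 was sequenced deeper, with 1932995 tags (458293 to 545387 per library) against 1165859 in brain 2 (228424 to 340852). Tags were 27 to 30 nt long. Levels below are CPM, the tags of a feature scaled to the mapped tags of its library. Of all tags, 11.5% repeated the exact position and strand of another tag of their library. That share was 8.09% to 12.8% in 7 libraries and 18.6% in library 4 of brain 2. In the 3 intervals it was 15.9% in Robo1, 14.98% in Robo2 and 13.5% in Dcc.

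Tag density per length was highest in Robo1, with 5.12 tags per kb, or 8.97 times the mean of 0.571 tags per kb and strand over the genome. Robo2 had 4.45 tags per kb (7.78 times the mean) and Dcc 3.00 (5.25 times). Nearly all tags lay on the strand of the gene. The share was 95.1% in Robo1 (275 tags on the opposite strand), 96.8% in Robo2 (79) and 95.5% in Dcc (154).

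Flanking tags were few around Robo1, more numerous around Dcc and most numerous upstream of Robo2. Flanks on each side, each 50% as long as the interval, held 125 tags upstream and 108 downstream of Robo1, where the same length inside held 2639 on average. For Dcc they held 313 and 220 tags against 1646 inside. For Robo2 the downstream flank held 89 tags and the upstream flank 806, against 1178 inside.

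Robo2 tags thus continued on the 5′ side of the interval. Steps of 50 kb were added while each held at least 1/3 of the interval's median count per step, and 20 steps were added before one fell short (53 tags, against the 60.2 needed). The stretch reached from 74420001 to 75420000 on the minus strand of chromosome 16 and held 6947 tags. At 6.95 tags per kb, 12.2 times the genome mean, it was denser than any of the 3 intervals, and 98.0% of its tags were on that strand. The Robo2 interval held 25.3% of the 9303 tags of the joined 1530 kb. RefSeq lists no protein-coding gene between Robo2 and Lipi. In GRCm38.p6, Robo2 starts 1 (chr16:75447244-75447343) and 2 (chr16:75092721-75092820) lie upstream of start 3 (chr16:74411776-74411875) on the same strand. The annotated Robo2 gene thus extends far upstream of start 3 in that build. No position was converted and no mm9 gene model was used, so whether the tags of the stretch come from Robo2 transcripts was not tested. The stretch was outlined after its tags were seen and is reported beside the Robo2 interval throughout. By the same rule Robo1 gained 0 steps, and Dcc gained 3 downstream steps with 95 tags.

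**Figure D1:**
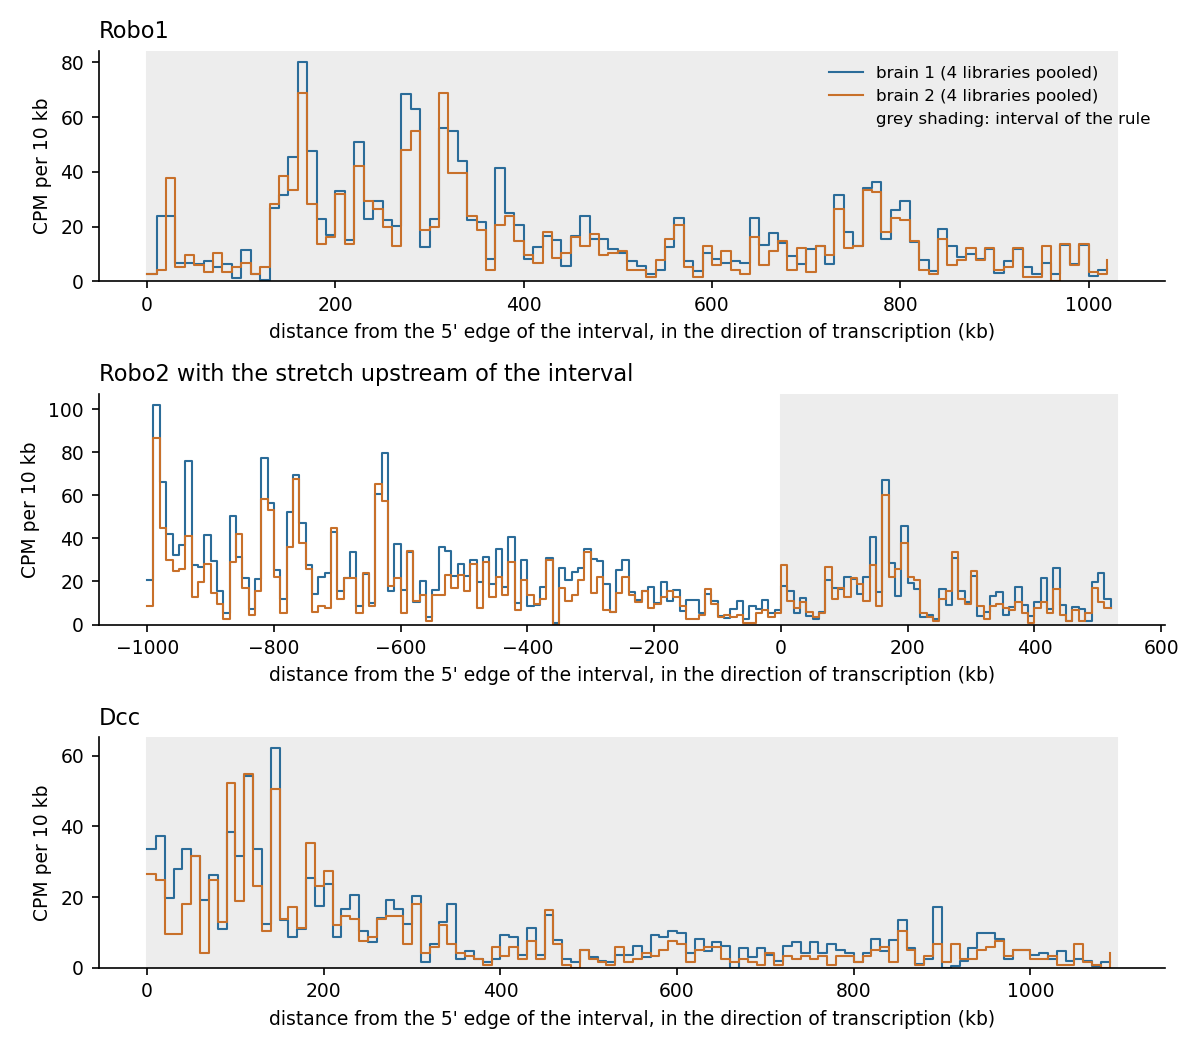
CPM in windows of 10 kb (y) against distance from the 5′ edge of the interval in the direction of transcription in kb (x), for Robo1, Robo2 with the 1000 kb upstream of it, and Dcc. Lines are the 4 pooled libraries of brain 1 and of brain 2, and grey shading marks the interval. Dcc tags crowd the 5′ end, Robo1 has a broad early rise and a later smaller one, and Robo2 tags continue far upstream of the shading.

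Along each interval, cut into 10 segments of equal length counted from the 5′ edge, the 3 intervals differed in where Ptbp2 tags lay. Dcc tags were concentrated at the 5′ end. Segments 1 and 2 held 26.5% and 25.8%, segment 3 held 12.9%, and each of the other 7 held 2.89% to 6.41%. Robo1 tags had a sparse first segment (5.50%), then 17.0%, 18.5% and 17.2% in segments 2 to 4, 5.14% in segment 6 and a second maximum of 13.0% in segment 8. Robo2 tags were highest in segment 4 (22.7%), which ranked first in all 8 libraries, with 14.8% in segment 3 and 12.5% in segment 6. In the stretch upstream of Robo2, segment 1 held 18.5%, again the highest in all 8 libraries, and segment 10 held 2.51%. Over the joined Robo2 stretch and interval, segments 1 and 2 were the highest, with 17.9% and 16.1%. Segment 1 ranked first in 6 of the 8 libraries there. The Robo2 profile thus depends on where its 5′ edge is set. The same may hold for Robo1. The only Robo1 start listed is chr16:72663099-72663198 in GRCm38.p6, whereas the Robo1 interval begins at 72020000 in mm9. No position was converted between these builds, so whether the early Robo1 segments lie before that start was not tested.

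The share of tags in the 5′-most 50% of each interval was compared between brains, since the choice of intervals did not use it. In Robo1 it was 66.1%, 62.9%, 67.3% and 69.2% in libraries 1 to 4 of brain 1 and 65.7%, 62.2%, 63.3% and 73.2% in those of brain 2. The brains overlapped, with means of 66.3% ± 2.66 and 66.1% ± 4.97 (SD, n = 4 each; two-sided exact permutation p = 0.943). In Robo2 the shares were 57.6%, 56.4%, 60.7% and 62.2% in brain 1 and 62.5%, 63.0%, 61.8% and 66.5% in brain 2, so that 1 library of brain 1 exceeded the lowest of brain 2. The means were 59.2% ± 2.71 and 63.5% ± 2.07 (n = 4 each; exact permutation p = 0.0571). Dcc had 74.9% ± 2.55 and 78.6% ± 3.22 (n = 4 each; exact permutation p = 0.171), with overlapping libraries. Of these 3 comparisons, none passed 0.05. The smallest p that 4 against 4 libraries can give is 0.029. Over the joined Robo2 stretch and interval the share was 68.8% ± 0.81 in brain 1 and 66.1% ± 0.75 in brain 2, with no overlap (n = 4 each; exact permutation p = 0.029, the smallest possible). It was 0.0571 with repeated tags counted once.

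At the scale of 10-kb windows, 79 of the 103 windows of Robo1 and 39 of the 53 of Robo2 held 20 tags or more, as did 51 of the 110 of Dcc. The median window held 39 tags in Robo1, 39 in Robo2 and 17 in Dcc. The fullest Robo1 window (72180001 to 72190000) held 235 tags, which placed it in the top 0.615% of the 34816 windows of the genome with 20 or more. The fullest of Robo2 (74250001 to 74260000) held 200 tags, in the top 0.971%, and that of Dcc (72360001 to 72370000) held 164, in the top 1.70%. Upstream of Robo2, 86 of 100 windows reached 20 tags, and the fullest (75400001 to 75410000) held 298.

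Overlapping tags of all libraries were joined into clusters, and a cluster's height is the largest number of tags over one base. Robo1 had 68 clusters of height 10 or more, Robo2 33 and Dcc 26, of 22803 in the series. Per length, Robo1 and Robo2 were alike with 66.0 and 62.3 clusters per Mb, and Dcc had 23.7. Relative to tags, Robo1 had 12.9 clusters per 1000 tags, Robo2 14.0 and Dcc 7.90, against 7.36 over the series. The stretch upstream of Robo2 had 102 clusters (102 per Mb, 14.7 per 1000 tags). Dcc had the fewest per tag at this height, but at height 5 or more the 3 genes were nearly alike, with 40.2, 42.9 and 38.6 clusters per 1000 tags in Robo1, Robo2 and Dcc. The clusters held 25.0% of Robo1 tags (95% Clopper-Pearson interval 23.9% to 26.2%), 23.1% of Robo2 tags (21.4% to 24.8%) and 13.3% of Dcc tags (12.2% to 14.5%), where the series share was 15.7%. At height 5 or more the Dcc share was 33.2% and the series share 28.7%, so Dcc lay below the series at one limit and above it at the other. These intervals cover counting error only. At height 20 or more the shares were 10.9% in Robo1, 8.45% in Robo2 and 3.16% in Dcc, and 8.40% in the series. Single tags that overlapped no other made up 24.0%, 25.4% and 31.6% of the 3 genes' tags and 38.2% of all tags. Clusters are made of overlapping tags, so cluster and single-tag shares depend on tag density, for which the intervals were chosen. Their differences from the series are a description and were not tested.

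Near the height limit, 16 Robo1, 6 Robo2 and 7 Dcc clusters had a height of exactly 10, and 15, 3 and 6 had a height of 9 and were left out. Median heights were 14.5, 13.0 and 12.5, against 14.0 in the series. Heights of 20 or more occurred 16 times in Robo1, 7 times in Robo2 and 2 times in Dcc. Clusters lay closer together in the Robo genes, with a median gap of 5.86 kb in Robo1, 4.80 kb in Robo2 and 9.63 kb in Dcc. In Robo1, 29 of 68 clusters had another within 1000 nt, in Robo2 12 of 33 and in Dcc 6 of 26. In Dcc, 24 of 26 clusters lay in the 5′-most 50% of the interval, and the longest gap without a cluster was 557 kb. The longest gaps in Robo1 and Robo2 were 107 and 104 kb.

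**Figure D2:**
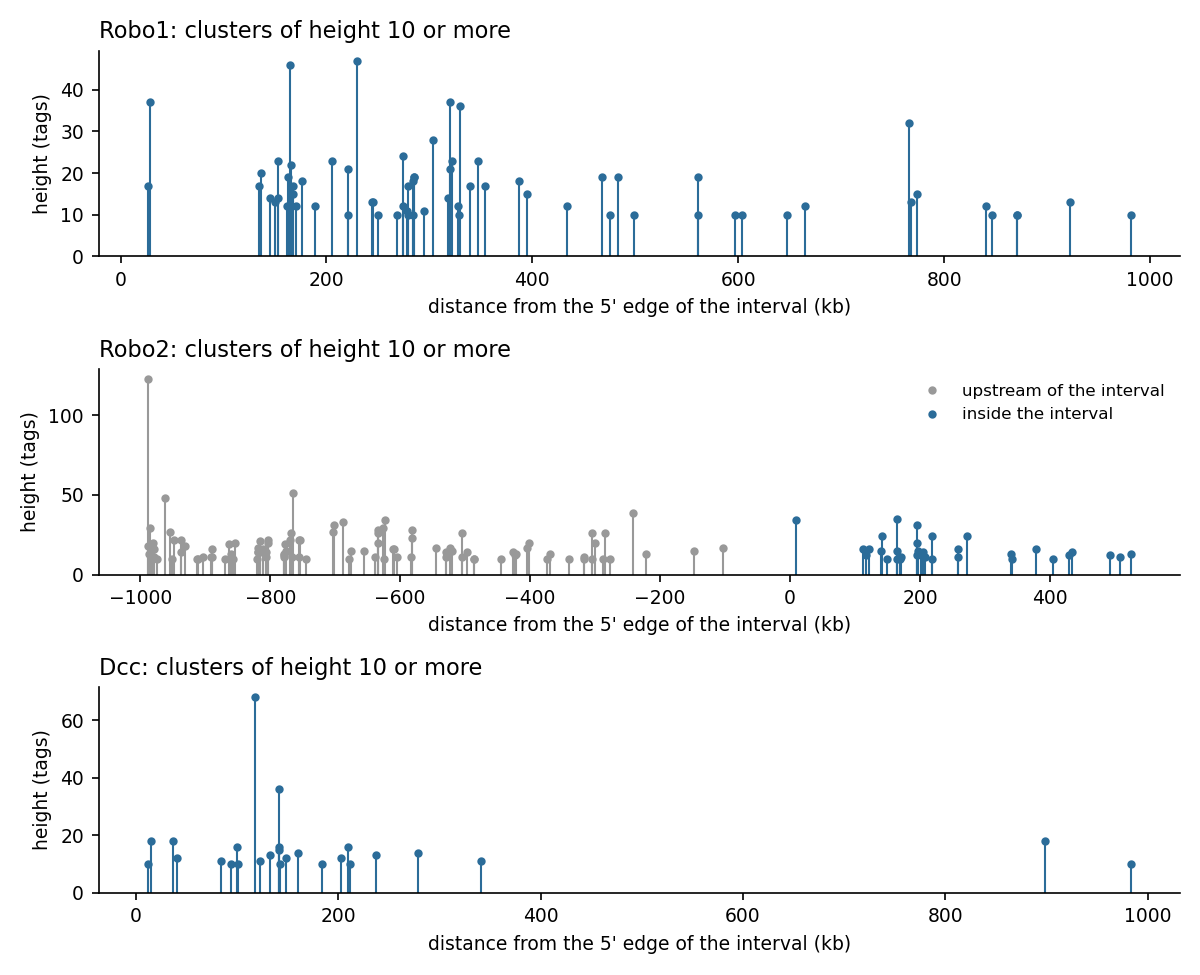
Height in tags (y) of each cluster of height 10 or more against its distance from the 5′ edge of the interval in kb (x), for Robo1, Robo2 and Dcc, with all 8 libraries pooled. Grey markers are clusters upstream of the Robo2 interval, where the tallest reached 123. In Dcc 24 of 26 clusters lie in the 5′-most 50% of the interval.

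The tallest Robo1 cluster (72249959 to 72250046 on chromosome 16) had a height of 47. Its 51 tags were 16, 4, 9 and 5 in libraries 1 to 4 of brain 1 and 2, 7, 5 and 3 in those of brain 2. The next (72184522 to 72184560) had a height of 46, with 8, 6, 12 and 3 tags in brain 1 and 2, 2, 5 and 8 in brain 2. Both were thus found in each library. A cluster near the 5′ edge (72048207 to 72048256) had a height of 37 with 3, 3, 4 and 6 tags in brain 1 and 2, 2, 10 and 7 in brain 2, and 56.8% of its tags shared one position. It tied with the widest cluster of the gene (72339645 to 72339843), whose 105 tags covered 199 nt.

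The tallest Robo2 cluster inside the interval (74254734 to 74254770) had a height of 35 and drew most tags from libraries 3 and 4 of brain 2. It held 3, 4, 5 and 1 tags in brain 1 and 1, 0, 7 and 14 in brain 2, and 60.0% shared one position. The next (74411186 to 74411223, height 34) lay 8.80 kb from the 5′ edge and held 3, 4, 7 and 5 tags in brain 1 and 6, 3, 5 and 1 in brain 2. The third (74224435 to 74224491, height 31) held 11, 6, 2 and 5 tags in brain 1 and 1, 3, 2 and 4 in brain 2. Upstream of the interval, the tallest cluster (75408344 to 75408397) was taller than any inside the 3 intervals, with a height of 123. It held 28, 15, 18 and 19 tags in brain 1 and 10, 12, 4 and 17 in brain 2, and 74.0% of the tags shared one position.

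In Dcc the tallest cluster (72393710 to 72393754 on chromosome 18, 117 kb from the 5′ edge) had a height of 68, the highest of the 3 intervals. It held 10, 10, 4 and 14 tags in brain 1 and 6, 5, 7 and 12 in brain 2. The next (72369435 to 72369488) had a height of 36, with 6, 7, 4 and 9 tags in brain 1 and 3, 1, 3 and 3 in brain 2. A cluster further 3′ (71612561 to 71612646, tied at height 18) stood apart from the others, with 3, 5, 4 and 3 tags in brain 1 and 1, 2, 1 and 1 in brain 2. The Dcc interval thus combined the tallest cluster of the 3 intervals with the fewest clusters of height 10 or more.

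Nearly all pooled clusters held tags from each brain, in these genes as over the series. They were all 68 in Robo1, 32 of 33 in Robo2 and all 26 in Dcc, and 99.1% of the 22803 in the series. The exception in Robo2 (73986095 to 73986143) held 4, 7, 3 and 0 tags in brain 1 and 0 in each library of brain 2. All 8 libraries contributed to 16 clusters of Robo1, 6 of Robo2 and 4 of Dcc, and to 23.8% of the clusters of the series. When clusters of height 5 or more were called in each brain alone, 44 of 54 in brain 2 overlapped one of brain 1 in Robo1 (81.5%), 18 of 27 in Robo2 (66.7%) and 16 of 26 in Dcc (61.5%). Together this was 78 of 107, or 72.9% (95% Clopper-Pearson interval 63.5% to 81.0%), against 66.7% in the rest of the series. Of the brain 1 clusters, 76 of 248 (30.7%) were found in the shallower brain 2, against 33.0% elsewhere. After the tags of brain 1 were thinned to match brain 2 in depth, 48.6% of brain 2 clusters of the 3 genes were found in it, against 46.0% elsewhere. The interval of the 3 genes covers the value of the rest in each case but cannot show that they are equal. Exact 5′ ends of tags were shared as well. Of the distinct 5′ ends in brain 2, 26.4% in Robo1, 26.1% in Robo2 and 23.2% in Dcc also occurred in brain 1, and 18.9% over the series. As a share of brain 1 ends these were 14.4%, 13.1% and 11.9%, and 11.7% over the series. Ends coincide more often where tags are dense, and the intervals were chosen for many tags. The shares of 5′ ends are therefore a description and were not tested against the series.

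Levels were then compared between brains, which the choice of intervals did not use. The 4 libraries of a brain came from 1 animal, so p-values measure spread among libraries and not among animals. Robo1 stood at 1907, 1815, 1747 and 1652 CPM in libraries 1 to 4 of brain 1 and at 1451, 1446, 1543 and 1913 CPM in those of brain 2. All libraries of brain 2 except library 4 were below those of brain 1. The means were 1780 ± 108 and 1588 ± 221 CPM (SD, n = 4 each).

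Robo2 stood at 777, 906, 759 and 760 CPM in brain 1 and at 658, 608, 769 and 757 CPM in brain 2, with means of 801 ± 70.5 and 698 ± 78.1 CPM (n = 4 each). Libraries of the 2 brains overlapped, and library 2 of brain 1 was the highest. Dcc stood at 1219, 1183, 1118 and 1020 CPM in brain 1 and at 946, 790, 1006 and 1033 CPM in brain 2, with means of 1135 ± 87.4 and 944 ± 109 CPM (n = 4 each). One library of brain 2 exceeded the lowest of brain 1. The stretch upstream of Robo2 stood at 2560, 2621, 2389 and 2325 CPM in brain 1 and at 1724, 1716, 1960 and 2040 CPM in brain 2. There the brains did not overlap (2474 ± 139 and 1860 ± 165 CPM, n = 4 each).

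**Figure D3:**
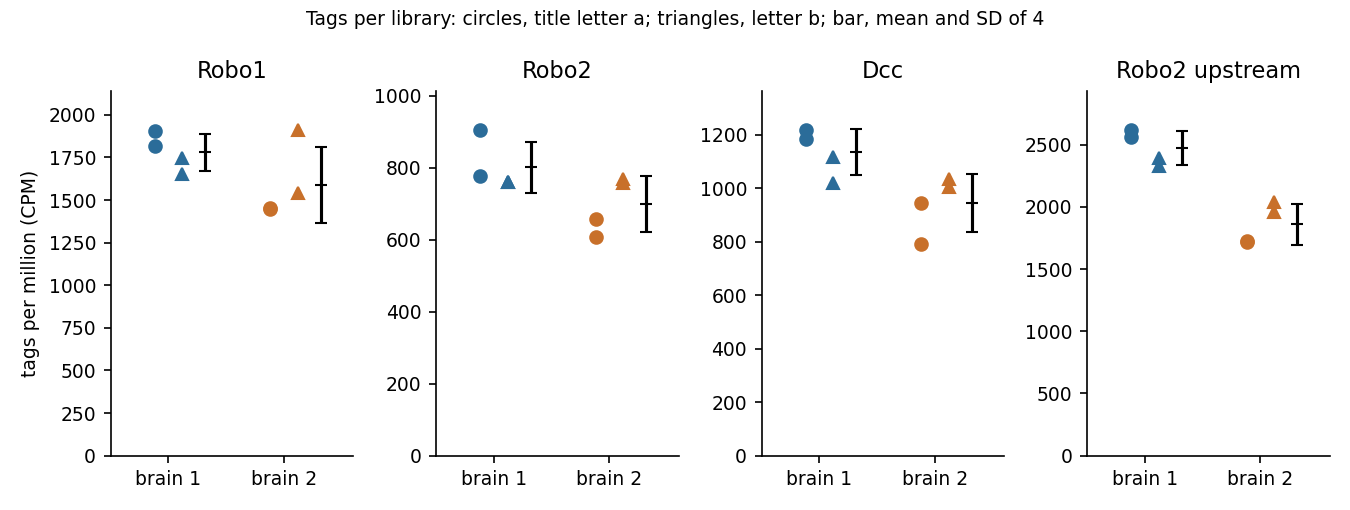
CPM (y, from 0) in each library of brain 1 and brain 2 (x) for Robo1, Robo2, Dcc and the stretch upstream of Robo2. Circles are libraries of title letter a, triangles those of letter b, and bars the mean and SD of 4. In brain 1 the circles stand at or above the triangles, in brain 2 below them, and only the upstream stretch has brains that do not overlap.

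The 3 intervals and the upstream stretch were fitted with strand-specific tiles of 500 kb over the genome by limma voom. Of 9670 features tested, 51 were called at the threshold of 0.05 (0.527%). In brain 2, 14 of them were higher and 37 lower, and the median log2 change was 0.02. Of the 3 receptor genes, 0 passed. The log2 change of brain 2 over brain 1 was -0.24 ± 0.12 in Robo1 (SE; adjusted p = 0.437), -0.26 ± 0.13 in Robo2 (adjusted p = 0.428) and -0.33 ± 0.13 in Dcc (adjusted p = 0.237). Their 95% intervals were -0.47 to 0.00, -0.52 to 0.00 and -0.58 to -0.08, unadjusted. The upstream stretch was lower in brain 2, with a log2 change of -0.47 ± 0.12 (adjusted p = 0.0281). This call was lost under a replicate block (adjusted p = 0.374), with libraries of a letter summed (0.614) and without any 1 library other than library 4 of either brain (adjusted p up to 0.202). Without library 4 of brain 2, the library with the most repeated positions, Robo1 (-0.35, adjusted p = 0.0308) and Dcc (-0.40, adjusted p = 0.0211) passed. In that fit 246 of 9976 features passed (2.47%), 208 of them lower in brain 2.

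The brain difference went with the letter of the library titles. Among letter a libraries, the mean fell from 1861 to 1449 CPM in Robo1, from 842 to 633 in Robo2, from 1201 to 868 in Dcc and from 2590 to 1720 in the upstream stretch. Among letter b libraries, the means of brain 1 and brain 2 were 1700 and 1728 CPM in Robo1, 760 and 763 in Robo2, 1069 and 1020 in Dcc and 2357 and 2000 in the upstream stretch. For Robo1 these near-equal means rest on library 4 of brain 2 (1913 CPM). Library 3 of brain 2 stood at 1543 CPM, below both letter b libraries of brain 1 (1747 and 1652 CPM). Fitted on letter a alone, all 3 genes and the stretch passed, where 7.99% of 9722 features did. Their log2 changes were -0.51 in Robo1, -0.54 in Robo2, -0.63 in Dcc and -0.73 upstream. Of the 777 features called, 651 were lower in brain 2. A lower log2 change than that of Robo1 occurred in 9.79% of features, of Robo2 in 8.07%, of Dcc in 4.88% and of the stretch in 2.43%. The intervals were chosen for many tags, which makes passing easier than for most tiles. Fitted on letter b alone, the log2 changes were 0.00, 0.01, -0.06 and -0.24 in the same order. None of the 4 passed, where 0.0309% of 9718 features did.

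A test of the difference between letters in the brain change, with all 8 libraries, gave 0.48 ± 0.12 on the log2 scale for Robo1 (SE; limma voom, adjusted p = 0.0178), 0.55 ± 0.14 for Dcc (adjusted p = 0.0309) and 0.48 ± 0.11 for the upstream stretch (adjusted p = 0.00551). Robo2, at 0.54 ± 0.16, did not pass (adjusted p = 0.0663). Of all features, 1.23% passed, 101 of 119 in the same direction as these. The repeated share of all tags was 10.6% in brain 1 and 8.60% in brain 2 for letter a, and 12.4% and 15.2% for letter b. The last value averages 11.7% in library 3 and 18.6% in library 4, so the contrast between letters in this share rests on library 4 of brain 2. Its part in the result was not tested. Each cell of this comparison has 2 libraries, which may be runs of 1 preparation, and p-values are then too small.

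**Figure D4:**
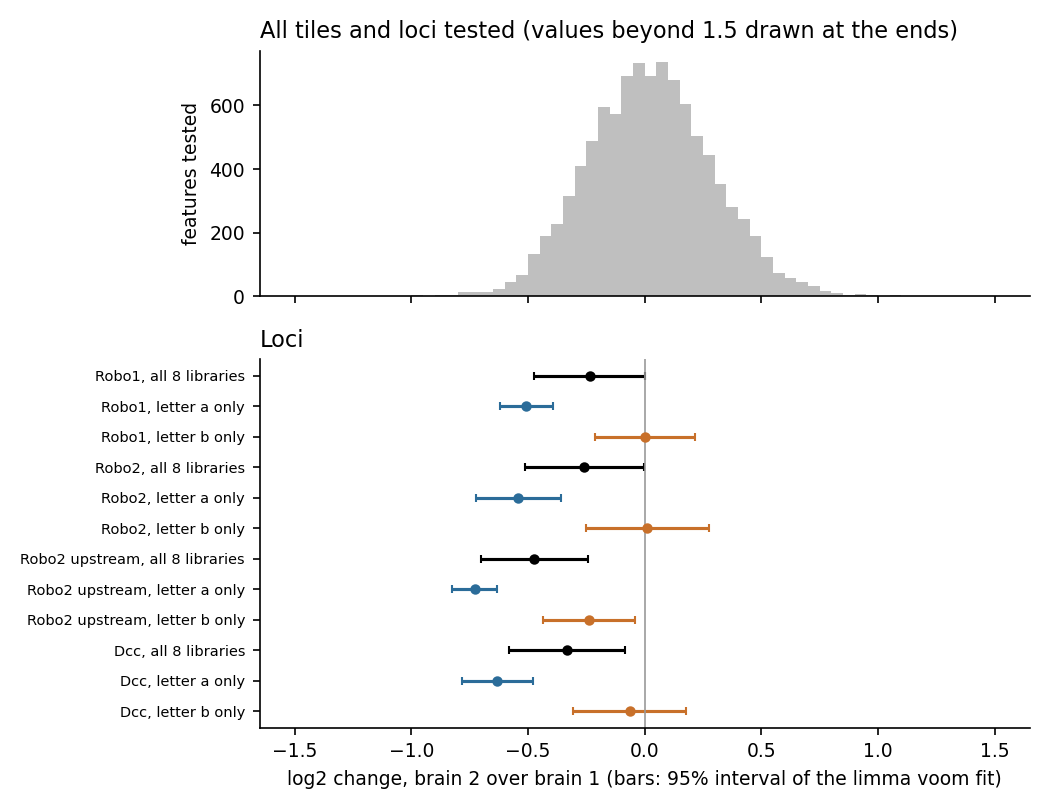
Log2 change of brain 2 over brain 1 (x, both panels). The upper panel is a histogram of the 9670 tiles and loci tested (y, number of features), and the lower panel gives the limma voom estimate and unadjusted 95% interval for each gene and the upstream stretch from all 8 libraries (black), letter a only (blue) and letter b only (orange). Letter a estimates lie between -0.73 and -0.51, and letter b estimates of the 3 genes lie near 0.

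Ratios within a library need no scaling and showed how the receptors stood to each other. Robo1 had 2.23 times as many tags as Robo2 in brain 1 and 2.28 times in brain 2, as arithmetic means of the library ratios, with single libraries between 2.01 and 2.53. The log2 ratio was 1.16 ± 0.12 and 1.18 ± 0.14 (SD, n = 4 each; two-sided exact permutation p = 0.771). Robo1 over Dcc was 0.65 ± 0.03 and 0.75 ± 0.15 (n = 4 each; exact permutation p = 0.429), and Robo2 over Dcc was -0.50 ± 0.12 and -0.43 ± 0.07 (n = 4 each; exact permutation p = 0.343). None of these 3 ratios passed 0.05. The upstream stretch over the Robo2 interval was 1.63 ± 0.08 in brain 1 and 1.42 ± 0.06 in brain 2, with no overlap (n = 4 each; exact permutation p = 0.029, the smallest possible). Its ratio was thus 3.10 in brain 1 and 2.67 in brain 2. With repeated tags counted once the difference was -0.13 and p was 0.0571. The call was also lost without library 1 of brain 1 or library 1, 3 or 4 of brain 2 (exact permutation p = 0.0571 each) and with libraries paired by number (0.125, the smallest that pairing allows).

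Inside the genes, no position that was deep enough to test passed between brains. Robo1 spans 103 windows of 10 kb, Robo2 53 and Dcc 110, and most of them were not tested. Of 3757 windows of 10 kb tested over the genome 45 passed (1.2%), 44 of them higher in brain 2. Of the 38 in the 3 genes 0 passed, and of 35 upstream of Robo2 0 passed. An unadjusted p under 0.05 occurred in 5 and 2 of these, and in 388 windows over the genome (10.3%). The Robo1 window with the smallest adjusted p (72040001 to 72050000) held 13, 12, 7 and 14 tags in brain 1 and 8, 7, 15 and 14 in the shallower brain 2, a log2 change of 0.83 ± 0.31 (SE; limma voom, adjusted p = 0.253). That of Robo2 (74410001 to 74420000) held 6, 7, 13 and 9 tags and 10, 6, 9 and 7 tags, a log2 change of 0.89 ± 0.40 (adjusted p = 0.395). That of Dcc (72320001 to 72330000) held 18, 9, 15 and 6 tags and 11, 10, 11 and 9 tags, a log2 change of 0.75 ± 0.31 (adjusted p = 0.325). Scaled by total mapped tags instead, the log2 changes of these windows were 0.56 in Robo1, 0.62 in Robo2 and 0.58 in Dcc. Scaling factors were set separately for tiles and windows, so window changes are not on the same scale as the tile changes above.

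Of 466 clusters deep enough to test over the series, 6 passed (1.29%). Only the widest Robo1 cluster (72339645 to 72339843) was among those tested in the 3 genes, with a log2 change of 0.07 ± 0.31 (SE; limma voom, adjusted p = 0.937). The tallest cluster upstream of Robo2 gave -0.59 ± 0.34 (adjusted p = 0.333). The other clusters of the 3 genes held too few tags per library for this test.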

How the data were processed

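Ptbp2 HITS-CLIP tags of 8 libraries, 4 from each brain, were read from the list the authors deposited, in which each row gives the position and strand of 1 tag and a name that opens with the library code. The deposited coordinates are positions, and the deposited score was 0 in each row and was not used. All 8 codes matched the sample titles, 0 tags lacked a library, and 0 columns belonged to other samples. Bowtie and the builds mm8 and mm9 are named in the submitters' processing notes. Tags reached position 197194446 on chromosome 1, and the coordinates are given as mm9, counted from 1. Reads began with degenerate bases and a G per the labels' protocols. The sources used here do not say how repeated and multiply mapping reads were handled.

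The genes, intervals and lists were chosen with earlier results of these data known. Tags were counted by midpoint in the intervals, in strand-specific tiles of 500 kb and windows of 10 kb, and in clusters of tags that overlapped by 1 nt or more. A feature was tested if it had 15 tags in total and, in at least 4 libraries, the CPM worth 10 tags at median depth. Because the file is a tag list and not a count table, limma 3.58.1 (voom, R 4.3.3) was used, with scaling by trimmed means of log ratios and Benjamini-Hochberg adjustment over all features (threshold 0.05). The fit was first tested on simulated data. Single values per library were compared by two-sided exact permutation tests, coded directly in Python 3.11.15. Clopper-Pearson intervals were computed with scipy 1.17.1.

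Named sites were the 3 tallest clusters per gene and any cluster or window past the threshold or, with none, the one with the smallest adjusted p. Replicate numbers of the brains do not pair libraries: residual correlations of same-numbered libraries were -0.07, -0.03, -0.01 and -0.08. Alternatives were another scaling, no filter, tiles of 1 Mb, tags placed by their 5′ end, repeated tags counted once, the replicate block, the title letter, each library left out, and other cluster limits. The upstream stretch of Robo2, its ratio to the Robo2 interval and the fits by letter were added after the data were seen. Promoter sequences are from RefSeq (GRCm38.p6), where Robo1 and Robo2 had entries and Dcc had none.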

Additional observations from a re-analysis of the deposited data

Results flagged for a closer look

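Of 54 sets of 4 libraries examined, 2 held a library that stood far from the others of its brain, and chance gives about 1 in 20. For Robo2, library 2 of brain 1 stood at 906 CPM, where the other 3 libraries lay between 759 and 777 CPM. For the cluster upstream of Robo2 at 75382712 to 75382759 (height 48), library 4 of brain 1 held 0 tags (0.0 CPM), where the other 3 lay between 20.2 and 23.9 CPM.

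The change from brain 1 to brain 2 differed between title letters in a test of the difference itself (limma voom). The difference, letter b minus letter a on the log2 scale, was 0.48 for Robo1 (adjusted p = 0.0178), 0.55 for Dcc (adjusted p = 0.0309) and 0.48 for the stretch upstream of Robo2 (adjusted p = 0.00551). The meaning of the letters is not given in the labels, and each letter has 2 libraries per brain.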

How the results depend on the processing

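The brain change of the 3 genes kept its sign and stayed short of the threshold under another scaling, no filter, 1 Mb tiles, tags placed by 5′ ends, repeated tags counted once, the replicate block, letters as a random block or summed, and the letter as a term. Letter a alone moved it past the threshold (Robo1 -0.51, Robo2 -0.54, Dcc -0.63), and letter b alone turned Robo1 (0.00025) and Robo2 (0.011) to about 0. With each library left out it ranged from -0.35 to -0.18 in Robo1, -0.32 to -0.18 in Robo2 and -0.40 to -0.23 in Dcc. For the stretch upstream of Robo2 the range was -0.54 to -0.42 (adjusted p = 8.89e-05 to 0.202). Its call was lost with the replicate block (-0.47), letters summed (-0.48), the letter as a term (-0.47, adjusted p = 0.0535) and letter b only (-0.24, adjusted p = 0.945). Tiles called over the genome numbered 51 as reported, 0 with the replicate block (910 at an unadjusted p under 0.05) and 0 with letters summed (800), 103 with repeats counted once, 777 in letter a, 3 in letter b, and 0 to 246 with a library left out. The low end came without library 1 or 2 of brain 1 and the high end without library 4 of brain 2. Windows called numbered 45 as reported, 8 scaled by total tags, 10 without a filter, 5 with letters summed, 14 with repeats counted once and 16 to 45 with a library left out. Scaling by total tags moved the median of all windows to -0.21. Clusters called numbered 6 as reported, 15 scaled by total tags, 0 with letters summed (156 at an unadjusted p under 0.05) and 3 to 9 with a library left out. None of these fits called a window or cluster inside the 3 genes. The replicate numbers do not pair the libraries, and the block is given for completeness.

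The ratio of Robo1 to Robo2 differed by -0.023 to 0.088 between brains with a library left out, with -0.022 without library 2 of brain 1 and -0.023 without library 4 of brain 2. The Robo1 share in the 5′-most 50% differed by 0.12 percentage points with repeats counted once and by -2.61 to 1.08 with a library left out, with values of 0.07 and 0.72 without libraries 3 and 4 of brain 1 and 1.08 and 0.70 without libraries 2 and 3 of brain 2. The Robo2 share differed by 3.23 to 5.22 points; without library 4 of brain 1 (5.22) it passed, with an exact permutation p of 0.029. The change of the widest Robo1 cluster was -0.029 without a filter, -0.22 without library 2 of brain 1 and -0.043 without library 4 of brain 2, within -0.22 to 0.25 over libraries left out. The tallest upstream cluster lay between -0.84 and 0.030, the latter without library 3 of brain 2. It could not be fitted, nor could any cluster of the genes, with repeats counted once.

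Cluster numbers followed the height limit. At height 5 they were 212 in Robo1 (43.3% of its tags), 101 in Robo2 (41.1%) and 127 in Dcc (33.2%), and at height 20 they were 16 (10.9%), 7 (8.45%) and 2 (3.16%). With repeats counted once they were 45 in Robo1 (16.9%) and 13 in Dcc (6.85%), and the Robo2 share was 16.3%. Dcc had the lowest share in each of these settings. The cause of these shifts was not tested beyond the construction of each setting. Brain 2 has fewer tags, which limits the clusters that can be compared. With brain 1 thinned to that depth, 52 of 111 of its clusters in the 3 genes (46.9%) were found in brain 2, and 51.7% in the rest of the series.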
